A study of Mus musculus with 18 samples.

Results

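Interleukin-1 is the main early inflammatory cytokine of activated macrophages beside TNF, and the genes described here encode its ligands, its antagonist, its receptors and the enzyme that activates it. All probe sets whose platform annotation gives Il1a, Il1b, Il1rn, Il1r1, Il1r2, Il1rap, Il18 or Casp1 were taken, which gave 15 probe sets of 8 genes, among 45101 probe sets and 18193 genes with a symbol of their own on the array. Of these, 10 probe sets of 6 genes were bright enough to be tested, that is, they reached the array's median signal on at least 3 of the 18 arrays, as did 27110 probe sets in all. The probe sets of Il1a and Il1r1 and 2 of the 5 of Il1rap did not, so Il1a and Il1r1 are described without a test.

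IL-1 alpha and IL-1 beta act on the same receptor, IL1R1, which signals only together with the accessory chain IL1RAP through the adaptor MYD88. IL-1 beta and IL-18 are made as inactive precursors that caspase-1 cuts after an inflammasome has formed, so the mRNA alone does not show active cytokine. The receptor antagonist encoded by Il1rn occupies IL1R1 without signalling, and IL1R2 is a decoy that binds IL-1 but lacks a signalling domain. In macrophages LPS, the bacterial product sensed by Toll-like receptor 4, is the classical trigger of Il1b transcription, and IL-10 is known to lower Il1b mRNA and to raise Il1rn mRNA over hours.

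The cells were bone marrow macrophages of IL-10-/- mice, so every group lacks the gene's function, and IL-10 reached the cells only where it was added. They had been grown for 7 days with CSF-1 from L cell conditioned medium, to more than 95% macrophages per the labels, and were treated without CSF-1. LPS at 100 ng/ml plus IL-10 at 10 ng/ml was given for 10, 20 or 30 min, and LPS alone at the same dose for the same times, with 3 arrays in each of the 6 groups. Each replicate number stands for a separate experiment, run in sequence from mice matched for age and sex, and these are called experiments 1, 2 and 3. Untreated and wild-type cells were not analysed here, so a difference with time cannot be set against resting cells.

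All 8 macrophage markers examined (Csf1r, Adgre1, Cd68, Lyz2, Itgam, Cd14, Mrc1 and Mertk) were above the filter. So were all 7 granulocyte markers with a probe set, 5 of 5 stromal and 3 of 4 dendritic markers, and 1 of 4 markers each of T and of B lymphocytes. At 20 min, LPS gave 2 arrays (experiments 2 and 3) that stood apart, with lower quartiles of signal of 38.6 and 34.0 against 21.8 to 31.0 elsewhere, and several dim probe sets were highest there. Array medians lay between 75.6 and 120.9. Signals are the deposited linear intensities, and 3 arrays per group limit the precision. Because these are bulk cultures, fewer cells of a type and less RNA per cell cannot be told apart.

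Il1b, the gene of the main secreted IL-1 ligand, was the one tested member called for a rise within the 30 min. The call was made with LPS plus IL-10 and on average over both treatments, in the fit that takes the experiment as a block, and with LPS alone the difference ran the same way. Its promoter is printed first, beside that of Il1a, because both lie on chromosome 2 and encode ligands of the same receptor. The sequences are the RefSeq windows of GRCm38.p6, from 250 bases before to 50 bases after the start site, at chr2:129371090-129371389 (minus strand) for Il1b and chr2:129309923-129310222 (minus strand) for Il1a. They run 5′ to 3′, and capitals mark every match on either strand to 6 motifs. For NF-kB the letters searched were GGG and CC with any 5 bases between them, for STAT TTCNNNGAA and for CRE TGACGTCA. For AP-1 they were TGANTCA. The core of PU.1, a macrophage transcription factor, was searched as GAGGAA. The TATA box was searched as TATAAA.
Il1b promoter: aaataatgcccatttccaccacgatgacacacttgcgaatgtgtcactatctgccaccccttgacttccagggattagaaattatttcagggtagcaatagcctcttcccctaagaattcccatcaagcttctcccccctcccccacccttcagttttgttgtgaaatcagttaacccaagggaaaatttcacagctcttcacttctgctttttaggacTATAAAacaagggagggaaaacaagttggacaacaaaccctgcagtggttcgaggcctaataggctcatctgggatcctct
Il1a promoter: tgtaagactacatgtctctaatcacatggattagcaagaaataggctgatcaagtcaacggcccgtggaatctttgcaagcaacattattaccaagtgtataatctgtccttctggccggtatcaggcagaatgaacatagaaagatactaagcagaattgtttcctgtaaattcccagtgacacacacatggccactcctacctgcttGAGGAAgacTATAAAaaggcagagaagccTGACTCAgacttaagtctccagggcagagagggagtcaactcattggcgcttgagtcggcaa
In the Il1b window the single match was a TATA box at -31 to -26 from the start site. The Il1a window held a TATA box at -32 to -27, a PU.1 core at -41 to -36 and an AP-1 match at -12 to -6. Among 32851 mouse promoter windows of the same length, 13.62% held the TATA letters, 28.28% the PU.1 core, 7.808% AP-1, 50.79% NF-kB, 8.298% STAT and 1.79% CRE. A match is a description of the letters, and matches outside these 300 bases were not searched.

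With LPS plus IL-10, Il1b (probe set 1449399_a_at) gave signals of 104, 127 and 421 at 10 min in experiments 1, 2 and 3. At 20 min the same treatment gave 49.5, 265 and 542, and at 30 min 474, 1119 and 1140.1. All 3 arrays at 30 min lay above all 3 at 10 min, although the dimmest at 30 min, from experiment 1, was only just above the brightest at 10 min, from experiment 3. How many of all probe sets separate in this way was not counted, and with 3 arrays per group such a separation is weak. With LPS alone the signals were 129, 226 and 370.1 at 10 min, 109, 407 and 524 at 20 min, and 256, 1049 and 1167 at 30 min. Here the times overlapped, since experiment 1 at 30 min lay below experiment 3 at 10 min. Experiment 1 was the dimmest of the 3 in every group, and its array with LPS plus IL-10 at 20 min was the single one of 18 where Il1b fell below the array's median.

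**Figure D1:**
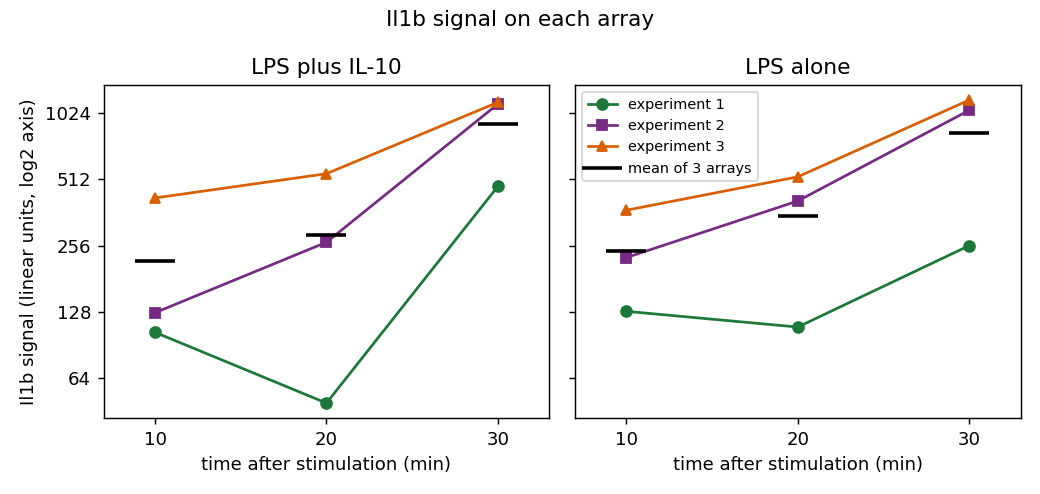
Il1b signal on each of the 18 arrays (vertical axis, log2 scale, linear signal units) against time after stimulation in min, with LPS plus IL-10 on the left and LPS alone on the right. Lines join the arrays of an experiment and black dashes are means of 3 arrays; in every experiment the 30 min array lies above the 10 min array in both panels.

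Between 10 and 30 min with LPS plus IL-10, Il1b averaged 911 ± 379 at 30 min and 217 ± 177 at 10 min (mean signal ± SD, n = 3 each), a difference of 2.14 on the log2(signal + 16) scale. That scale understates changes of dim probe sets. The difference was 2.04, 2.99 and 1.40 in experiments 1, 2 and 3. In the limma fit without a block, where the gaps between experiments count as spread, the SE was 0.78 and the adjusted p 1.00. With the experiment as a block the SE was 0.31 and the adjusted p 0.00243. Of the 10 tested member probe sets, 0 were thus called without the block and 1 with it, against 0.0443% and 0.225% of all tested probe sets. The blocked call was lost without experiment 2 (log2 difference 1.72, adjusted p = 0.219) and kept without experiment 1 or 3 (adjusted p = 0.0381 and 0.00525).

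Most of this gain came after 20 min. From 20 to 30 min with LPS plus IL-10 the log2 difference was 1.99 (2.90, 2.02 and 1.05 in experiments 1, 2 and 3), with a limma adjusted p of 1.00 without the block and 0.0339 with it. Again 0 of 10 member probe sets were called without the block and 1 of 10 with it, against 0% and 0.0184% of all tested probe sets, and 517 probe sets had an unadjusted p below the threshold without the block. The blocked call held without experiment 3 (adjusted p = 0.0355) but not without experiment 1 (0.443) or 2 (0.327). From 10 to 20 min the difference was 0.15, and its 3 values, -0.87, 0.97 and 0.35, differed in sign. In that earlier interval 0 of 10 member probe sets were called in either fit, against 0.0111% without and 0.0332% with the block.

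With LPS alone Il1b differed in the same direction without passing the test. It averaged 824 ± 496 at 30 min and 242 ± 121 at 10 min (n = 3 each), a log2 difference of 1.55 (0.91, 2.14 and 1.62 in experiments 1, 2 and 3; limma adjusted p = 1.00 without the block and 0.0857 with it). From 20 to 30 min the log2 difference was 1.19, with 1.12, 1.33 and 1.13 in the 3 experiments (adjusted p = 0.208 with the block). From 10 to 20 min it was 0.36, with -0.21, 0.81 and 0.48. No member probe set was called with LPS alone in any of these intervals in either fit. The background was 0.0184% at 30 against 10 min without the block and 0.111% with it, 0% and 0.0184% at 30 against 20 min, and 0% and 0.0148% at 20 against 10 min. At unadjusted p values below the threshold the 2 comparisons with 0% had 1303 and 899 probe sets.

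Averaged over both treatments, Il1b rose by 1.85 from 10 to 30 min on the log2 scale (95% interval 1.38 to 2.32 with the block), and by 1.47, 2.56 and 1.51 in experiments 1, 2 and 3. The adjusted p was 0.911 in the limma fit without a block and 0.00016 with it, and the blocked call held without each experiment (adjusted p = 0.0037, 0.0475 and 0.00102 without experiments 1, 2 and 3). It was the single member probe set of 10 called with the block, and none was called without it, against 0.435% and 0.059% of all tested probe sets. No other member probe set had a blocked adjusted p below 0.657. The next largest difference, 0.42, belonged to 1 of the 3 Il1rn probe sets (1423017_a_at), and the 95% intervals of Casp1 (-0.15 to 0.17) and Il18 (-0.33 to 0.05) were narrow and held 0.

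**Figure D2:**
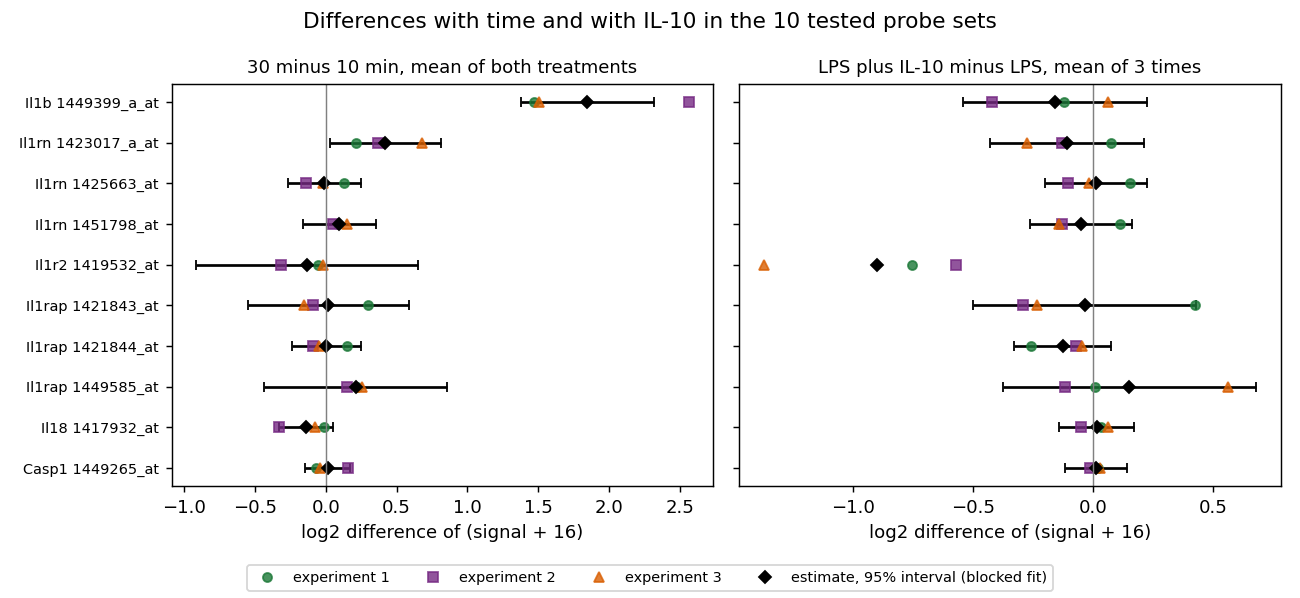
Log2 differences of (signal + 16) for the 10 tested probe sets, 30 minus 10 min on the left and LPS plus IL-10 minus LPS on the right. Black diamonds and bars are the estimate and 95% interval of the blocked fit, coloured symbols the 3 experiments; Il1b at 1.85 is the one probe set whose interval on the left lies above 1. Il1r2 has no interval on the right, because it passed the filter only through LPS arrays.

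The other early cytokines and chemokines of the same time course, a list of 12 genes of which 8 were tested, also rose. Averaged over both treatments, 7 of 8 rose with the block (2 of 8 without), against 0.435% and 0.059% of all tested probe sets called. The median log2 difference of the 8 was 1.34, against -0.03 over all tested probe sets. Cxcl2, a neutrophil chemokine, rose by 2.40 (blocked SE 0.14, limma adjusted p = 6.45e-09). Cxcl1, which binds the same receptor, rose by 2.62 (SE 0.19) and Tnf by 1.70 (SE 0.16). Ccl3, Ccl4, Ccl7 and Ccl2, which attract monocytes and other leukocytes, rose by 1.25, 1.12, 1.43 and 0.81. The eighth tested gene, Il12b, was not called in this comparison, and Il6, Il23a, Csf2 and Csf3 were too dim to be tested, with no signal above 98.8. The list was chosen with results of these data known, so its count is no independent evidence of a direction.

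The genes whose log2 signals resembled Il1b most over the 18 arrays, among 12526 other genes, were Cxcl3 (Pearson r = 0.85), Ube2b (0.85), Nfkbie (0.83), Pde4b (0.82) and Gm13238 (0.81). Cxcl3 is a neutrophil chemokine, Nfkbie encodes an inhibitor of NF-kB, Pde4b a cAMP phosphodiesterase and Ube2b a ubiquitin-conjugating enzyme. These are descriptions, since arrays of an experiment share their cells. All 5 had their lowest mean in experiment 1 and their highest in experiment 3, as Il1b did. The correlation took in the differences between experiments, so a shared order is partly built into the choice of these genes.

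IL-10 made no difference to Il1b that the test could find at any time. At 10 min the signal averaged 217 ± 177 with LPS plus IL-10 and 242 ± 121 with LPS (n = 3 each), a log2 difference of -0.29 (-0.28, -0.76 and 0.18 in experiments 1, 2 and 3). At 20 min it averaged 285 ± 247 with LPS plus IL-10 and 347 ± 214 with LPS, a difference of -0.49 (-0.94, -0.59 and 0.05). At 30 min it averaged 911 ± 379 with LPS plus IL-10 and 824 ± 496 with LPS, a difference of 0.30 (0.85, 0.09 and -0.03). The treatments overlapped at each time, and the direction of the difference was not shared by all 3 experiments at any of them. Averaged over the times, the difference was -0.16, with a blocked 95% interval of -0.54 to 0.22. Leaving out both LPS arrays that stood apart at 20 min turned the difference at 20 min to 0.79 and the average to 0.27 in the fit without a block, where experiment 1 alone then stands for LPS at 20 min, while with the block they were -0.27 and -0.09. The change of the difference from 10 to 30 min was 0.59, with a blocked 95% interval of -0.35 to 1.52.

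Il1r2 is left out of the IL-10 counts here, since it passed the filter only through LPS arrays. No other tested member probe set was called between LPS plus IL-10 and LPS at 10, 20 or 30 min or on average. This held with and without the block. Few probe sets were called at all. At 10 min 0% of all tested probe sets were called in either fit (309 with an unadjusted p below the threshold without and 970 with the block), at 20 min 0.00738% without and 0.0184% with the block, at 30 min 0.0111% and 0.0443%, and on average 0.0111% and 0.0332%. The change of the difference from 10 to 20 min was called for none of these other members, against 0% without the block (556 unadjusted) and 0.00738% with it. The change from 10 to 30 min was called for none of them either, against 0.00369% and 0.0184%.

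Il1a, the ligand that also acts at the cell surface and inside the cell, was dim. Its probe set (1421473_at) lay below the array's median on all 18 arrays, with signals of 6.2 to 76.2, and between 5.66% and 46.9% of all probe sets were lower on the same array. With LPS plus IL-10 it gave 31.4, 14.7 and 6.2 at 10 min, 6.2, 34.6 and 24.4 at 20 min, and 6.4, 53.3 and 27.8 at 30 min in experiments 1, 2 and 3. With LPS alone it gave 14.1, 17.8 and 6.8 at 10 min, 9.3, 12.2 and 61.5 at 20 min, and 20.3, 76.2 and 48.1 at 30 min. With LPS alone the signal was higher at 30 than at 10 min in all 3 experiments, and with LPS plus IL-10 in experiments 2 and 3 but not in 1. The highest values were at 30 min in experiment 2 and, at 20 min with LPS, in experiment 3, whose array is one of those that stood apart. No test was made, and no detection calls were used, so these signals cannot be told from background. The genes most like it by correlation over the 18 arrays were Adk (r = 0.75), Stra8 (0.75), Serinc1 (0.72), Zfp974 (0.72) and 2010320M18Rik (0.68), which describes dim signals.

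Il1rn, the receptor antagonist, was bright on all 18 arrays on each of its 3 probe sets, and neither time nor IL-10 moved it past the test. Its level differed between the experiments. The gene makes a secreted and intracellular forms of the antagonist from separate promoters, and 2 of its 3 RefSeq windows are printed here because Il1rn was bright on every array and, unlike Il1b, was not called with time, while the remaining window overlaps the downstream one. They lie at chr2:24336610-24336909 and chr2:24345121-24345420 on the plus strand of GRCm38.p6, with the same motifs in capitals.
Il1rn upstream promoter: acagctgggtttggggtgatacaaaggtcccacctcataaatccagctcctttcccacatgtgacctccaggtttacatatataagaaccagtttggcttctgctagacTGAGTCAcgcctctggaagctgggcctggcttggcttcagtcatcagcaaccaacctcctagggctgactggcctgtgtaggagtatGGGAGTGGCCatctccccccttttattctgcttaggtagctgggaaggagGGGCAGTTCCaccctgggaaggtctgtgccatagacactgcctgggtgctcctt
Il1rn downstream promoter: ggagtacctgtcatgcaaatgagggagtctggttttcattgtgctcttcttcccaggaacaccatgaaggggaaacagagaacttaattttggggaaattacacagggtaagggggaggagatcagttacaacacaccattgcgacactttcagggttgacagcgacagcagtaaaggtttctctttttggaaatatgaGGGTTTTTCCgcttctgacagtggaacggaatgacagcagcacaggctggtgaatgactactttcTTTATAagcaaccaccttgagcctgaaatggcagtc
The upstream window held NF-kB matches at -54 to -45 and -4 to 6 and an AP-1 match at -141 to -135 from the start site. The downstream window held an NF-kB match at -51 to -42 and the TATA letters on the opposite strand at 15 to 20. Which form each probe set measures was not worked out here, and the downstream NF-kB match is also in the overlapping window.

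On probe set 1451798_at, with LPS plus IL-10, Il1rn gave 2141, 3422 and 582 at 10 min, 2001, 2962 and 420.6 at 20 min, and 2020.3, 3781 and 718 at 30 min in experiments 1, 2 and 3. With LPS alone it gave 1686.5, 3640.0 and 755 at 10 min, 2012, 3880 and 414 at 20 min, and 2016.5, 3546 and 758 at 30 min. The 3 experiments did not overlap, although the 6 arrays of experiment 3 spread from 414 to 758. How many of all probe sets lack overlap between experiments was not counted. The means were 1979.5 ± 153, 3538 ± 326 and 608 ± 161 in experiments 1, 2 and 3 (SD over 6 arrays of an experiment, which share their cells). Probe set 1425663_at ran in the same order, at 469 ± 54.3, 1145 ± 78.7 and 271 ± 59.2. So did 1423017_a_at, at 1335 ± 153, 2011 ± 492 and 416 ± 198, although experiments 1 and 2 overlapped there.

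In the limma fit with both group and experiment as terms, Il1rn was lower in experiment 3 than in experiment 2 by log2 differences of -2.55 (1451798_at, SE 0.12, adjusted p = 7.06e-11), -2.04 (1425663_at, SE 0.12) and -2.34 (1423017_a_at, SE 0.19). It was also lower in experiment 3 than in experiment 1, by -1.72, -0.77 and -1.79. Of all 27110 tested probe sets, 6536 were called for experiment 3 against 2 and 12009 for 3 against 1. The experiment took 95.5, 95.7 and 82.4% of the log2 sum of squares of these probe sets, and the 6 groups at most 10.1%. Over all tested probe sets the medians were 37.9% for the experiment and 18.5% for the groups.

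The IL-10 difference in Il1rn, averaged over the times, was -0.05 (1451798_at, blocked 95% interval -0.26 to 0.16), 0.01 (1425663_at, -0.20 to 0.22) and -0.11 (1423017_a_at, -0.43 to 0.21). At 30 against 10 min the averages over both treatments were 0.10 (1451798_at, blocked 95% interval -0.16 to 0.36), -0.01 (1425663_at, -0.27 to 0.25) and 0.42 (1423017_a_at, 0.03 to 0.81). The last of these was not called over all tested probe sets (blocked limma adjusted p = 0.657). Its difference was above 0 in every experiment in both treatments, at 0.23, 0.35 and 0.50 with LPS plus IL-10 and 0.19, 0.38 and 0.86 with LPS in experiments 1, 2 and 3. Probe set 1423017_a_at also had the largest difference of the 3 over a single interval, with a log2 difference of 1.04 from 20 to 30 min with LPS plus IL-10 (0.11, 1.04 and 1.97 in experiments 1, 2 and 3; blocked adjusted p = 0.405). Its signals there were 1477, 2583 and 609 at 30 min and 1368, 1251 and 143.5 at 20 min, and the last of these was its lowest on any array. Over the same interval 1451798_at differed by 0.37 and 1425663_at by -0.18 (0.35, -0.13 and -0.74 in the 3 experiments).

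Il18, the second cytokine cut by caspase-1, and Casp1 itself lay above the array's median on all 18 arrays, and no difference with time or IL-10 passed the test for either. Both differed between the experiments. With LPS plus IL-10, Casp1 (1449265_at) gave 3619.5, 4794 and 7121 at 10 min, 3702, 3955 and 7433 at 20 min, and 3822, 5603 and 7200.3 at 30 min in experiments 1, 2 and 3. With LPS alone it gave 3803, 4833 and 7235 at 10 min, 3931, 4421 and 7374 at 20 min, and 3270.4, 5122 and 6725 at 30 min. The 3 experiments did not overlap, with means of 3691 ± 232, 4788 ± 567 and 7182 ± 251 (SD, 6 arrays each). How many of all probe sets lack overlap between experiments was not counted. Casp1 was higher in experiment 3 than in experiment 2 by 0.59 and than in experiment 1 by 0.96 on the log2 scale (SE 0.08 for both, limma adjusted p = 1.28e-05 and 1.71e-08).

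Il18 (1417932_at) had signals of 543 to 621 in experiment 1, 663 to 939 in experiment 2 and 939.9 to 1209 in experiment 3. The means were 579 ± 28.1, 784 ± 105 and 1028 ± 99.1. The experiments again did not overlap, but experiments 2 and 3 only just missed doing so. The share of all probe sets without such overlap was not counted. Il18 was higher in experiment 3 than in experiment 2 by 0.39 and than in experiment 1 by 0.81 (adjusted p = 0.00393 and 1.28e-06). The order of the experiments for Il18 and Casp1 thus differed from that for Il1rn, whose lowest values were in experiment 3. The average IL-10 differences were 0.02 for Il18 (blocked 95% interval -0.14 to 0.17) and 0.01 for Casp1 (-0.12 to 0.14).

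**Figure D3:**
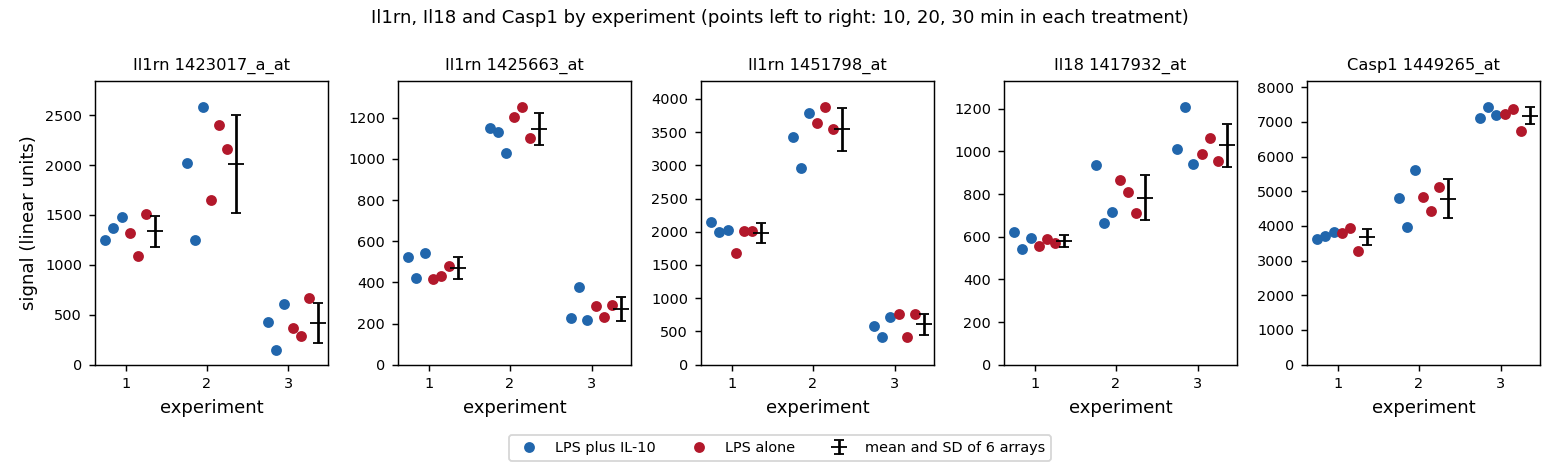
Signal (linear units, axes from 0) of the 3 Il1rn probe sets, Il18 and Casp1 in experiments 1, 2 and 3. Each point is 1 array, blue for LPS plus IL-10 and red for LPS, in the order 10, 20, 30 min, and black bars are the mean and SD of 6 arrays; Il1rn is lowest in experiment 3, where Il18 and Casp1 are highest.

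Il1b differed between the experiments too, with means of 187 ± 156, 532 ± 437 and 694 ± 362 in experiments 1, 2 and 3 over all times and treatments. It was higher in experiment 3 than in experiment 1 by 1.97 and than in experiment 2 by 0.63 (limma adjusted p = 1.25e-06 and 0.0458). The second of these calls was lost at a pseudocount of 1 (adjusted p = 0.0596), without the filter (0.0609), without the intensity trend (0.0951) and without the LPS 20 min array of experiment 3 (0.0616). Altogether 6 of 10 tested member probe sets differed between the experiments by the moderated F test (Il1b, the 3 of Il1rn, Il18 and Casp1), against 51.6% of all tested probe sets. The share of members was therefore near that of all probe sets.

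Markers of cell types differed between the experiments as well. Of 7 granulocyte markers with a probe set (all tested), 5 had their highest mean in experiment 2. The summed signal of the 7 was 7038 to 8584, 11855 to 14020.0 and 5640 to 9085 on the arrays of experiments 1, 2 and 3. S100a8, which encodes a calcium-binding protein of neutrophils and monocytes, had means of 3515 ± 550.4, 6755 ± 736 and 3597 ± 828 in experiments 1, 2 and 3. Ngp, a neutrophil granule gene, had 544 ± 36.4, 1287 ± 41.1 and 702 ± 117 (SD, 6 arrays each). The other 2 markers were highest in experiment 1. Mpo, which encodes myeloperoxidase, had 361 ± 46.9, 186 ± 52.2 and 240.1 ± 39.2, and Elane, which encodes neutrophil elastase, had 184 ± 44.5, 121 ± 65.8 and 119 ± 53.4. By the F test 6 of the 7 differed, against 51.6% of all tested probe sets, Elane being the exception (adjusted p = 0.136). The summed macrophage markers spanned 108353 to 140326, 125956 to 153874 and 124945 to 197239. Of the 8, 4 had their highest mean in experiment 2 and 4 in experiment 3. By the F test 4 differed, which is near the share of all tested probe sets. Among these Adgre1, which encodes F4/80, had means of 10564 ± 393, 19459 ± 1507 and 23292 ± 1791, and Cd14, the LPS co-receptor, had 22550.4 ± 2245, 22837 ± 2807 and 28484 ± 4915. Both were highest in experiment 3. Mertk, a receptor for the uptake of dying cells, had 456 ± 61.1, 998 ± 126 and 826 ± 113, and Mrc1, the mannose receptor, had 8208 ± 711, 10373 ± 992 and 9925 ± 1041. Both were highest in experiment 2. The summed stromal markers spanned 1670 to 2339, 2294 to 3693 and 1982 to 2788. The part of cell composition in the differences of Il1rn, Il18, Casp1 and Il1b was not tested. The experiments were done one after the other, so cells, culture and array processing cannot be told apart.

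The receptor genes were dim, apart from the accessory chain. Il1r1, the signalling receptor, had signals of 8.1 to 84.6 on probe set 1448950_at, where 1 array reached its own median, and of 0.9 to 29.1 on 1459777_at, where none did. The array that reached it, 84.6, was LPS plus IL-10 at 20 min in experiment 1, and the second highest, 74.0, was LPS at 30 min in experiment 2. The other arrays of these 2 groups gave 8.1 to 21.1.

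Il1r2, the decoy receptor (1419532_at), reached the array's median on 4 arrays, and all 4 were of LPS alone. With LPS plus IL-10 it gave 68.1, 6.5 and 19.9 at 10 min, 44.9, 62.3 and 24.9 at 20 min, and 39.3, 14.4 and 6.1 at 30 min in experiments 1, 2 and 3. With LPS alone it gave 78.1, 46.1 and 31.7 at 10 min, 92.9, 79.6 and 140.4 at 20 min, and 116.4, 13.5 and 59.4 at 30 min. The treatments did not overlap at 20 min, where 2 of the LPS arrays are those that stood apart, and overlapped at 10 and 30 min. How many of all probe sets lack overlap was not counted. Averaged over the times the log2 difference was -0.90 (-0.75, -0.57 and -1.37 in experiments 1, 2 and 3). No test of this difference is given, since the probe set passed the filter only through LPS arrays. The highest signal, 140.4, was on an LPS array that stood apart, and without both such arrays the blocked difference was -0.64. With LPS plus IL-10 its signals lay below the array's median on all 9 arrays.

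**Figure D4:**
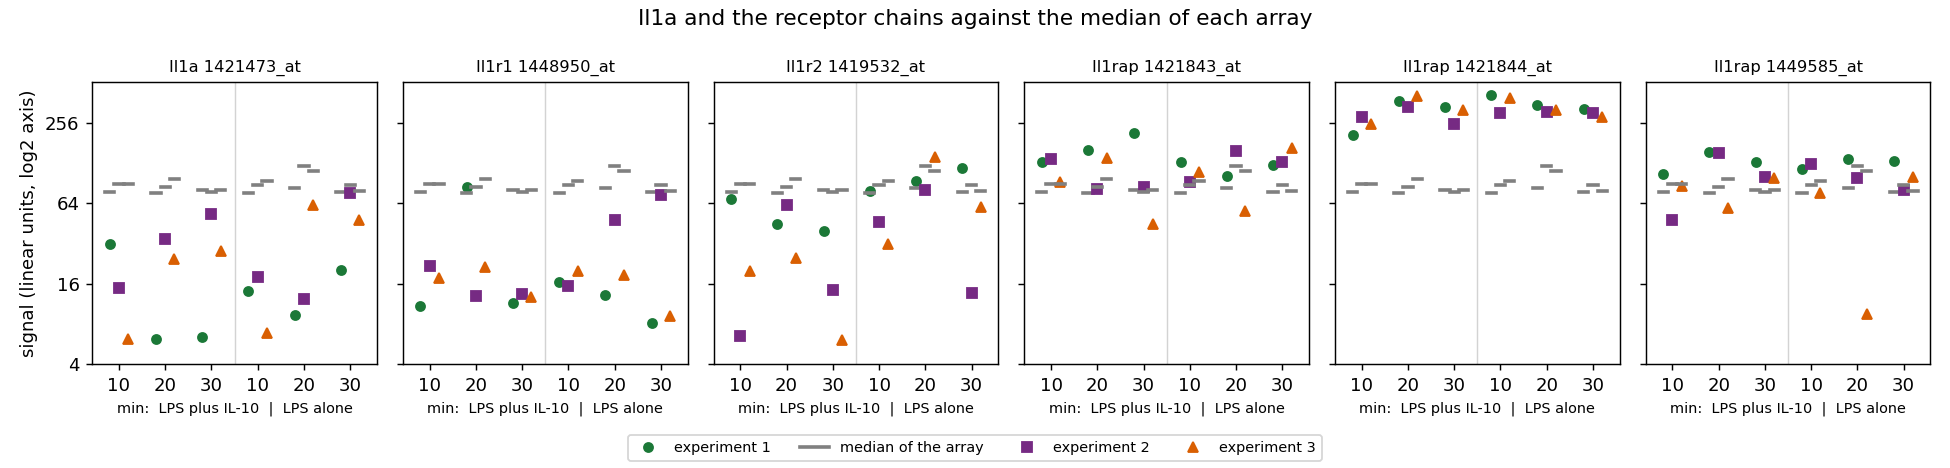
Signal (log2 axis, linear units) of Il1a, Il1r1, Il1r2 and Il1rap probe sets on each array, by time in min, LPS plus IL-10 left of the grey line and LPS right of it. Symbols are the 3 experiments and grey dashes the median of that array; of the probe sets shown, Il1rap 1421844_at alone lies above the median on all 18 arrays.

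Il1rap, the accessory chain that IL-1, IL-33 and IL-36 receptors share, was above the array's median on all 18 arrays on probe set 1421844_at, on 15 and 11 on 1421843_at and 1449585_at, and on 1 and 0 on 1439697_at and 1442614_at. The single array of 1439697_at was LPS at 20 min in experiment 3, one of those that stood apart. On 1421844_at, LPS plus IL-10 gave 208, 284 and 248 at 10 min, 372, 336 and 402 at 20 min, and 337, 249 and 317 at 30 min in experiments 1, 2 and 3. LPS alone gave 414.5, 302 and 388 at 10 min, 345, 308 and 316 at 20 min, and 323, 300.3 and 284 at 30 min. At 10 min the treatments did not overlap and the values with IL-10 were lower, and at 20 and 30 min they overlapped. The share of all probe sets without overlap was not counted, and with 3 arrays per group such a separation is weak.

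The IL-10 difference of 1421844_at at 10 min was -0.55 (-0.94, -0.08 and -0.61 in experiments 1, 2 and 3), with a blocked 95% interval of -0.89 to -0.20 and a limma adjusted p of 1.00. At 20 min it was 0.18. The 2 other tested probe sets of the gene had differences of 0.10 (1421843_at) and -0.37 (1449585_at, blocked 95% interval -1.28 to 0.54) at 10 min, and a difference between probe sets was not tested. None of the 3 was called between the experiments by the F test (adjusted p = 0.261, 0.537 and 0.0644 for 1421843_at, 1421844_at and 1449585_at). In the pairwise comparisons 1449585_at was lower in experiment 3 than in experiment 1, by -0.87 on the log2 scale (limma adjusted p = 0.0279). For that pair 12009 of 27110 tested probe sets were called. Experiment 3 includes a signal of 9.4 with LPS at 20 min, on an array that stood apart.

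Around these genes, the rest of the IL-1 family and its signalling chain showed few calls. Calls were few over the whole array too, with at most 0.435% of all tested probe sets in any comparison of times or treatments. Of 14 other IL-1 family ligands and receptors, 9 had a probe set and 5 were tested (Il1f10, Il1rl2, Il18rap, Il18bp and Sigirr), and none was called with time or IL-10 in either fit. Averaged over both treatments, the log2 differences at 30 against 10 min were 0.16 for Il18rap, -0.18 for Il18bp and -0.19 for Sigirr. Of 20 genes of inflammasomes and IL-1 processing 15 were tested, and their median difference was -0.01 against -0.03 over all tested probe sets. The single call was Txnip, which encodes a thioredoxin inhibitor known to bind NLRP3. It fell by 0.52 on the log2 scale with the block (SE 0.09, limma adjusted p = 0.0051, and 0.639 without the block), with means of 5283 ± 1085 at 30 min and 7624 ± 1238 at 10 min with LPS plus IL-10, and 5542 ± 1233 at 30 min and 7766 ± 1021 at 10 min with LPS (n = 3 each). Nlrp3, the sensor that is itself induced by LPS, had a log2 difference of 0.26 (blocked SE 0.14, adjusted p = 0.776).

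Of 22 genes that carry the signal from the IL-1 receptor and Toll-like receptors 19 were tested. None was called in any comparison of times or treatments, against at most 0.435% of all tested probe sets. Their median difference at 30 against 10 min was -0.02. Map3k8, a kinase downstream of both receptor types, had the largest, at 0.50 (blocked SE 0.12, limma adjusted p = 0.0893), followed by Irak1 at -0.20 and Peli1 at 0.18. Neither Irak4, Peli3 nor Chuk matched a probe set with that single symbol.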

How the data were processed

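Total RNA of 18 macrophage cultures was labelled and hybridised to single-colour Affymetrix arrays. The authors deposited linear signal intensities, made with GCOS 1.4 per the submitters' processing notes, and how the signal was computed was not given in the sources used here. After trimming 2% at each end the mean signal was 497 to 498 on each array, so a change in total RNA per cell cannot be seen. No pair of arrays was identical (17 to 104 equal values in 153 pairs).

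Names came from the platform annotation, which may be out of date (34945 probe sets with 1 symbol, 932 with several, 9160 with none, 64 controls left out). No member symbol stood among the several. Signals were turned into log2(signal + 16), and a probe set at or above its array's median on at least 3 arrays was tested. The model with no block used R 4.3.3 and limma 3.58.1, with moderation along an intensity trend (functions lmFit and eBayes), over all 18 arrays with a coefficient for each group (12 residual degrees of freedom). All 13 comparisons were tested two-sided at 0.05, and p values were adjusted by Benjamini and Hochberg's method over 27110 probe sets each. An F test of the 3 experiments used the fit with the block. The scripts were tested on simulated data.

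The replicate number pairs the samples, since the labels make it an independent experiment. Same-numbered arrays of different groups deviated together from their group means (correlations of 0.20 to 0.64, 45 pairs), and differently numbered ones did not (-0.47 to 0.0651, 90 pairs). Taking off the group means itself pushes the latter values below 0, so the pairing rests on the same-numbered arrays. The fit with the experiment as a block (10 residual degrees of freedom) therefore stands beside each result whose call it changes.

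The genes, lists, motifs and tests were chosen with earlier results of these data known. Named genes were all members, list genes called in any comparison, up to 3 per list with the largest difference at 30 against 10 min, and the 5 genes most correlated with Il1b and with Il1a; exceptions are stated where they occur. Promoter sequences are from RefSeq (GRCm38.p6), and all 8 member genes matched. Alternatives were pseudocounts of 1 and 64, quantile normalisation, testing every probe set, a stricter filter (75th percentile), no trend, the compared arrays alone, each experiment left out and, added after seeing the data, the LPS 20 min arrays of experiments 2 and 3 left out.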

Additional observations from a re-analysis of the deposited data

Results flagged for a closer look

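All tested member probe sets were screened, over several pairs of comparisons, for differences of opposite sign in every experiment. Some hits arise by chance in such a screen, and the share of all probe sets that meet the rule was not counted. The IL-10 difference of the Il1rap probe set 1421844_at, the accessory chain of the IL-1 receptor, had opposite signs at 20 and 10 min in every experiment. LPS plus IL-10 minus LPS was 0.10, 0.12 and 0.33 at 20 min and -0.94, -0.08 and -0.61 at 10 min in experiments 1, 2 and 3. The change between the times was 0.73 on the log2(signal + 16) scale (limma adjusted p = 1.00 without the block and 0.626 with it).

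The IL-10 difference of Casp1 also had opposite signs in every experiment, at 0.22, 0.13 and 0.10 at 30 min and -0.07, -0.01 and -0.02 at 10 min. The change between the times was 0.19 (limma adjusted p = 1.00 in both fits). Neither change passed the test.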

How the results depend on the processing

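Across the alternatives, 538 of 579 values stayed the same. For 284 of these, single differences, that means the same direction and the same side of the threshold. The other 254 were numbers of member probe sets called, which had to be equal or close to the main number. That main number was 0 for every comparison of times or treatments. A count that stays at 0 says little about how firm a result is. The replicate block, with the pairing by experiment, was the setting that changed the number of member probe sets called with time. The number of member probe sets called at 30 against 10 min with LPS plus IL-10, at 30 against 20 min with LPS plus IL-10 and at 30 against 10 min averaged over both treatments was 0 without the block and 1 (Il1b) with it. With 1 experiment, or 1 LPS 20 min array of experiment 2 or 3, left out, each count was 0 without the block. With the block, the first ranged from 0 (without experiment 2) to 1 and the second from 0 (without experiment 1 or 2) to 1, and the averaged comparison stayed at 1. With the block and both LPS 20 min arrays left out, it was 1 at 30 against 10 min in the first and in the averaged comparison, and Il1b at 30 against 20 min had an adjusted p of 0.0573. The block changed no other call of a member in a comparison of times or treatments. Among the listed genes it also added calls, such as Txnip and, at 30 against 10 min averaged over both treatments, 7 against 2 of the 8 early cytokines tested. Settings other than the block lost the call of Il1b for experiment 3 against 2, as given above. Without both arrays and without the block, the IL-10 difference of Il1b reversed, to 0.79 at 20 min (-0.49 with all arrays) and 0.27 on average (-0.16), because LPS at 20 min is then represented by experiment 1, where Il1b was dimmest. The members that differed between experiments numbered 6 to 8 over the alternatives. The fit on only the arrays compared gives no value for the comparisons that use all 6 groups. Signals near the array's median or below, as for Il1a, Il1r1, Il1r2 and 2 Il1rap probe sets, have no detection call here, and 3 arrays per group limit what could be found.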

Other observations

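Other genes of the IL-1 pathway also differed between the experiments. By the F test 10 of 15 tested inflammasome genes, 12 of 19 signalling genes and 4 of 5 other family members differed, against 51.6% of all tested probe sets. The highest mean was in experiments 1, 2 and 3 for 2, 4 and 9 of the inflammasome genes and for 10, 4 and 5 of the signalling genes. The genes given here were chosen after their values were seen. Irak3, a negative regulator of IL-1 receptor and Toll-like receptor signalling, had mean signals of 758 ± 98.9, 889 ± 35.6 and 3977 ± 277 in experiments 1, 2 and 3 (SD, 6 arrays each; limma F test adjusted p = 8.72e-13). Casp4, the caspase that senses LPS inside the cell, had 895 ± 63.5, 1659 ± 226 and 2618 ± 191. Mefv, which encodes the inflammasome sensor pyrin, had 169 ± 15.1, 230.3 ± 34.1 and 455 ± 34.5. P2rx7, the ATP receptor that triggers the NLRP3 inflammasome, had 714 ± 35.6, 1033 ± 70.6 and 1386 ± 149. These 4 were highest in experiment 3. Il18bp, the secreted inhibitor of IL-18, was highest in experiment 2, with 161 ± 35.5, 664 ± 67.9 and 189 ± 83.3.

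Of the 8 early cytokines tested, 7 differed between the experiments by the F test, against 51.6% of all tested probe sets. All 7 had their lowest mean in experiment 3. The highest mean was in experiment 1 for 3 of the 8, in experiment 2 for 4 and in experiment 3 for 1, Il12b, which did not pass (adjusted p = 0.514). Tnf had 4941 ± 2116, 3927 ± 3064 and 806 ± 769.5 in experiments 1, 2 and 3, Ccl2 had 9041 ± 1300.0, 5717 ± 1803 and 2069.6 ± 1057, and Ccl7 had 4214.5 ± 1082, 2052 ± 1142 and 546 ± 453. These 3 were the ones highest in experiment 1. Il1b averaged highest in experiment 3. So did Cxcl3, a chemokine outside the list, which was picked for its correlation with Il1b over the same arrays.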
